A study of Mus musculus with 40 samples.

Results

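Mouse embryonic stem cells lacking Dux (DuxKO) were compared with wild-type cells (WT) in 2 deposited RNA count tables, and the changes that repeated from one table to the other were listed. Of the 40 samples of the series, 34 of them RNA libraries, 10 entered this comparison. The genotype table holds WT replicates 1 and 2 and DuxKO replicates 1 and 2. The Pramel7 table holds WT replicates 3 to 6 and DuxKO replicates 3 and 4. All 10 libraries come from E14tg2a, a widely used mouse embryonic stem cell line, grown with serum and LIF, the cytokine that holds such cells in self-renewal. No drug or transgene is named for either group. The labels give the knockout by name only. They do not say which Dux sequence was removed, how many clones the 4 DuxKO libraries represent, or whether replicates are separate cultures, so the p-values measure the spread between these libraries, which may be technical. Libraries of other genotypes served only to see where the DuxKO change differed: CtbpDKO (Ctbp double knockout) and Ctbp_DuxTKO (the same with Dux lost) in the genotype table, and P7OE (Pramel7 overexpression) and DuxKO_P7OE in the Pramel7 table, with 2 libraries each.

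Dux encodes a transcription factor with a double homeodomain. It is made for a short time when the mouse embryo, at the 2-cell stage, first transcribes its own genome, and it switches on genes such as the Zscan4 family together with the MERVL class of endogenous retroviruses. In cultures of embryonic stem cells only rare cells pass through this 2-cell-like state at any time. DPPA2 and DPPA4 are chromatin proteins that activate Dux, and the CtBP proteins are co-repressors. The title of the series poses CtBP against the DUX-dependent and DUX-independent parts of the 2-cell-like program.

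The 10 libraries held between 20390473 and 30203840 counts. The cells carried the transcripts of embryonic stem cells in every library: Pou5f1, the central pluripotency factor, stood at 492 to 808 CPM (counts per 1e+06 counts of the library, scaled for composition), Sox2 at 167 to 241 CPM and Nanog at 118 to 161 CPM. Markers of other cell types were summed per library. Endoderm markers stood at 346 and 414 summed CPM in WT against 264 and 266 in DuxKO of the genotype table, and at 218 to 267 against 234 to 243 in the Pramel7 table. Trophoblast markers stood at 46.9 and 49.6 against 62.2 and 67.2 in the genotype table and at 107 to 231 against 112 and 114 in the Pramel7 table. Fibroblast and feeder markers stood at no more than 12.4 in any library. WT levels of these lists differed between the 2 tables, and each DuxKO library was compared only with the WT libraries of its own table.

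Dux and its direct targets were close to the detection limit in these cells. Dux, listed in both tables as Duxf3, had 0 to 2 counts per WT library and 0 counts in all 4 DuxKO libraries, so that the knockout cannot be checked at this level in WT; 3 counts is taken throughout as the floor that a count of 0 allows. The 2 CtbpDKO libraries gave 40 and 24 counts of Duxf3 and the 2 Ctbp_DuxTKO libraries gave 0, which checks the loss in that background. The 6 genes Zscan4a to Zscan4f, zinc finger genes that mark the 2-cell-like state, together gave 27 and 16 counts in WT against 0 and 2 in DuxKO of the genotype table. In the Pramel7 table their sum was 38, 33, 32 and 44 counts in WT against 0 and 1 in DuxKO. Every DuxKO library was below every WT library. Zscan4c alone gave 12, 3, 14, 7, 5 and 19 counts in WT replicates 1 to 6 and 0 in all 4 DuxKO libraries (adjusted p = 0.011 in the joint fit, 0.11 in the genotype table and 0.033 in the Pramel7 table). Against the floor per library, Zscan4c was at least 2.48-fold lower in DuxKO in the genotype table and at least 3.42-fold lower in the Pramel7 table. The pseudogene Zscan4-ps2 gave 8 to 13 counts per WT library and 0 in DuxKO, at least 2.61-fold and 2.99-fold lower, and was the 1 member of the list of 2-cell genes to be called in both tables. Of the 36 listed 2-cell genes present in both tables, 7 had enough counts to be tested. Zscan4c, Zscan4-ps2 and Usp17le fell in the joint fit (7.58% of all genes did) and none rose. The median log2 fold change of the 7 was -3.14 against -0.01 over all genes. Zscan4c, Zscan4-ps2 and Usp17le gave 0 counts in all 4 DuxKO libraries and passed the count filter only through WT. A fall was the only change they could show, so the calls and the median of this list are a description. Members of the Zscan4 and Usp17 families are near-identical copies, and reads could be shared between them by the counting. Fewer 2-cell-like cells and less RNA per such cell cannot be told apart in bulk libraries.

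The Zscan4c promoter is shown because it holds TGAT and AATCA 2 bases apart, a layout that resembles the site that DUX is known to bind. The layout, in capitals, begins 114 bases before the annotated start; the sequence is that of the 250 bases before the start, 5′ to 3′ along the gene, at mm10 chr7:11005495-11005744 (RefSeq, plus strand).
Zscan4c: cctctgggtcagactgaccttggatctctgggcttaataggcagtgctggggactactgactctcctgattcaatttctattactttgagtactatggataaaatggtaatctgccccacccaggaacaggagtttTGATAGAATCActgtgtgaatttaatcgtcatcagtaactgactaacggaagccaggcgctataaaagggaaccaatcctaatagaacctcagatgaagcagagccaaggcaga
Searched on both strands in such windows of 250 bases, the layout was found for 56 of 27025 genes with a promoter in the RefSeq table (0.207%). Of the 387 genes that fell in both tables, described next, 269 had a promoter in that table and 0 of these held the layout.

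570 genes, 1 of them on the 2-cell list, differed between DuxKO and WT in the same direction in both tables, 387 lower and 183 higher. Of 20160 genes tested in a joint fit with the table as a covariate, 1247 (6.19%) were higher and 1528 (7.58%) lower in DuxKO (edgeR's quasi-likelihood test, adjusted p under 0.05 over all genes). Within the genotype table, 438 genes (2.17%) were higher and 771 (3.82%) lower. Within the Pramel7 table, 1546 (7.67%) were higher and 1732 (8.59%) lower. Its 4 WT libraries were not alike: replicates 3 and 4 were closest to each other (chi-square per gene of 22.2, against 51.3 to 103.8 for the other pairs), and their summed trophoblast markers stood at 217 and 231 CPM against 144 and 107 in replicates 5 and 6. The table gave 5471 calls with only WT replicates 3 and 4 and 5243 with only replicates 5 and 6. Called in the same direction in both were 183 genes higher (0.908%) and 387 lower (1.92%), 570 together (2.83%). The 387 were 50.2% of the genes lower in the genotype table and 22.3% of those lower in the Pramel7 table. The 183 were 41.8% and 11.8% of the genes higher in each. The 50.2% stands against 8.59% of all genes called lower in the Pramel7 table, and the 41.8% against 7.67% called higher. The tables share no library, but both contrasts came from 1 fit with a shared spread per gene. A gene of low spread is then more easily called in both, so these shares are no independent test of repetition. With each table fitted alone, 4202 genes were called in the genotype table and 2098 in the Pramel7 table. Of these, 772 repeated, 463 of them among the 570 with the same direction. The median log2 fold change of the 387 was -1.5 in the genotype table and -1.51 in the Pramel7 table, and 253 of them fell at least 2-fold in each. The 183 had medians of 0.94 and 0.89, and 59 rose at least 2-fold in each. For all 570 genes the DuxKO and WT libraries did not overlap in either table, which was also true of 1885 (9.35%) of all tested genes on the higher and 1909 (9.47%) on the lower side. These counts depended on single libraries and on the WT libraries used. With only WT replicates 3 and 4 of the Pramel7 table the balance turned round, with 766 repeating genes higher and 713 lower, whereas with only replicates 5 and 6 it was 469 and 727. The number of repeating genes was 188 without DuxKO replicate 1, 174 without DuxKO replicate 2, 294 without DuxKO replicate 3, 283 without DuxKO replicate 4, 203 without WT replicate 1 and 198 without WT replicate 2, and 187, 171, 286, 277, 202 and 196 of these were among the 570 with the same direction. The genotype table alone gave 259 calls without either DuxKO replicate 1 or 2, 310 and 291 without WT replicates 1 and 2, and 2015 without WT replicate 6, which takes no part in its contrast and bears only on the shared spread. The Pramel7 table gave 1191 and 1154 calls without DuxKO replicates 3 and 4, and the joint fit 1465 and 1474.

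**Figure D1:**
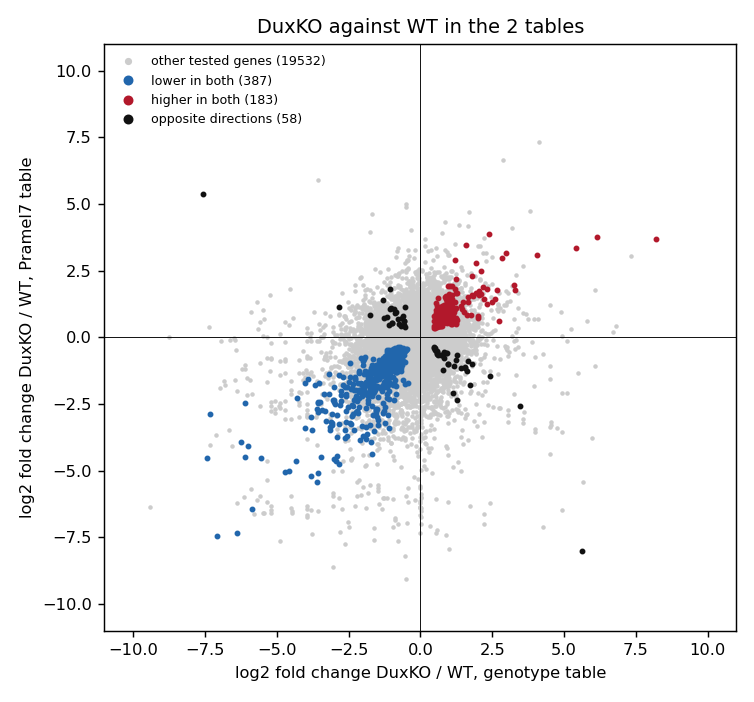
Each point is 1 of 20160 tested genes, with the log2 fold change of DuxKO against WT in the genotype table on the horizontal axis and in the Pramel7 table on the vertical axis. The 387 genes lower in both (blue) and the 183 higher in both (red) lie along the diagonal, and the 58 black genes were called in opposite directions.

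The largest repeating falls were in genes of several kinds, and each was several-fold lower in every DuxKO library. Lncenc1, a long non-coding RNA of naive embryonic stem cells, stood at 31.6 and 29.8 CPM in WT against 2.14 and 2.89 in DuxKO of the genotype table, and 215, 187, 233 and 100.2 in WT against 3.83 and 4.68 in DuxKO of the Pramel7 table. Lncenc1 fell by 4.64 ± 0.39 on the log2 scale in the joint fit (adjusted p = 1.7e-05). Values after ± are standard errors of the fit, here over 4 DuxKO and 6 WT libraries. Both WT and DuxKO levels of Lncenc1 were higher in the Pramel7 table, and the groups did not overlap. Clstn3, which encodes a calsyntenin of synapses, stood at 11.3 and 13.8 CPM in WT against 1.39 and 1.74 in DuxKO of the genotype table, and 37.6, 30.9, 23.1 and 23.1 in WT against 0.610 and 1.67 in DuxKO of the Pramel7 table. Clstn3 fell by 3.83 ± 0.35 on the log2 scale in the joint fit (adjusted p = 3.0e-05). Gpa33, the gene of an epithelial cell surface antigen, stood at 11.54 and 13.3 CPM in WT against 1.496 and 1.32 in DuxKO of the genotype table, and 18.9, 23.6, 23.3 and 21.6 in WT against 1.498 and 2.66 in DuxKO of the Pramel7 table. Gpa33 fell by 3.26 ± 0.17 on the log2 scale in the joint fit (adjusted p = 1.3e-06), with log2 fold changes of -3.14 and -3.35 in the tables. Aire, known for driving tissue antigens in the thymus, stood at 4.36 and 4.62 CPM in WT against 0.712 and 0.731 in DuxKO of the genotype table, and 7.54, 11.1, 11.52 and 11.8 in WT against 1.11 and 0.496 in DuxKO of the Pramel7 table. Aire fell by 3.25 ± 0.29 on the log2 scale in the joint fit (adjusted p = 2.5e-05). Gpx2, a glutathione peroxidase, and Serpinb6c, a serine protease inhibitor, had low levels in WT, at most 3.85 and 3.66 CPM, and fell to no more than 0.610 and 0.425 CPM in any DuxKO library (joint log2 fold changes -3.11 ± 0.26 and -3.15 ± 0.36, adjusted p = 1.7e-05 and 0.00017). The other 6 of the 12 largest falls were Cdkn1c and Phlda2 of an imprinted domain and Zfp978, Zfp979, Zfp980 and Zfp981 of chromosome 4.

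**Figure D2:**
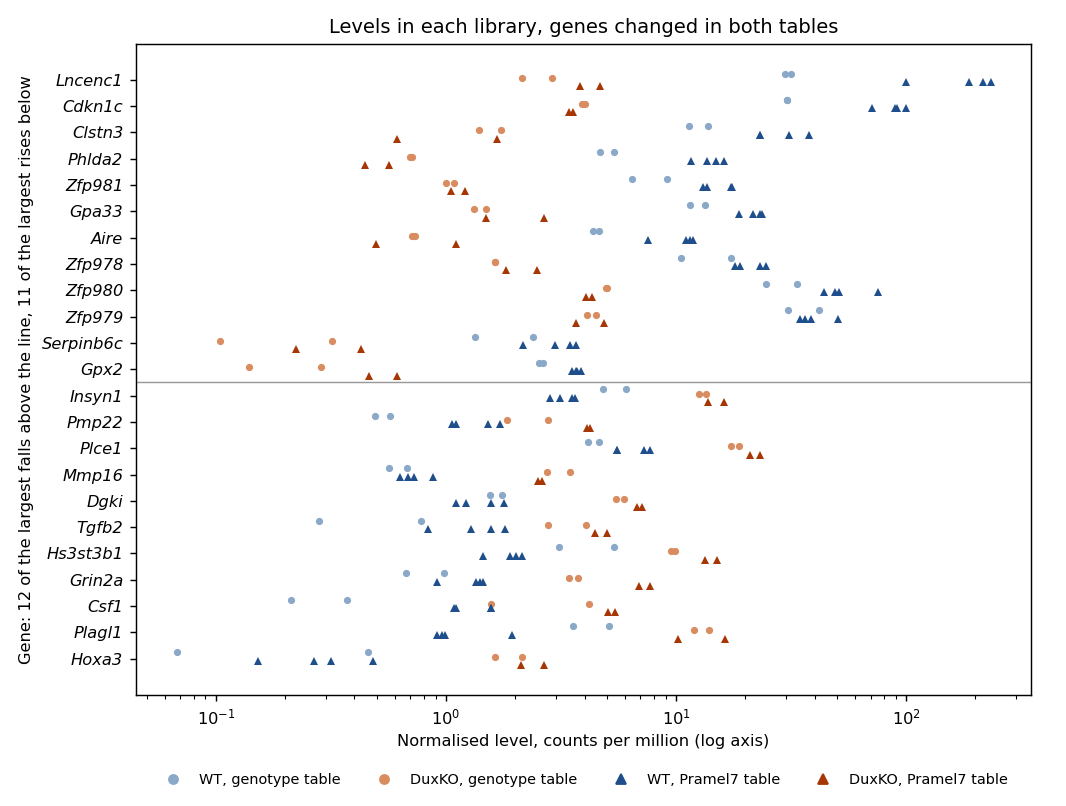
CPM on a log axis in each of the 10 libraries for the 12 largest repeating falls (above the line) and 11 of the 12 largest repeating rises (below it); circles are the genotype table, triangles the Pramel7 table, blue WT and orange DuxKO. For each gene the DuxKO libraries lie on 1 side of the WT libraries of their own table, as the choice of the genes requires.

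A stretch of neighbouring zinc finger genes on distal chromosome 4 fell together. The genes lie between positions 145510759 and 147702631 (mm10) and belong to a young, mouse-specific expansion of KRAB zinc finger genes, a class of DNA-binding repressors many of which target transposable elements. All 15 tested genes of the span with a Zfp symbol or named Rex2 were lower in DuxKO in the joint fit, 13 of them in both tables, at a median of -2.64 on the log2 scale. Of all 46 tested genes of the span 22 fell, these 15 among them, and 1 rose (7.58% and 6.19% of all genes). Over the 371 tested Zfp genes elsewhere in the genome, 34 were lower and 28 higher, near those shares, and the median was -0.09. The span was singled out after the values were seen, and its counts are a description.

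Zfp979 stood at 41.8 and 30.7 CPM in WT against 4.096 and 4.49 in DuxKO of the genotype table, and 36.4, 34.5, 50.3 and 38.5 in WT against 3.66 and 4.86 in DuxKO of the Pramel7 table. Zfp979 fell by 3.15 ± 0.16 on the log2 scale in the joint fit (adjusted p = 1.3e-06). Zfp980 stood at 33.6 and 24.7 CPM in WT against 4.99 and 4.98 in DuxKO of the genotype table, and 44.0, 48.9, 75.2 and 51.2 in WT against 4.33 and 4.08 in DuxKO of the Pramel7 table. Zfp980 fell by 3.18 ± 0.26 on the log2 scale in the joint fit (adjusted p = 1.2e-05). Rex2 stood at 41.8 and 31.4 CPM in WT against 4.63 and 5.74 in DuxKO of the genotype table, and 43.3, 41.0, 55.1 and 54.9 in WT against 6.21 and 4.22 in DuxKO of the Pramel7 table. Rex2 fell by 3.05 ± 0.18 on the log2 scale in the joint fit (adjusted p = 2.6e-06). In these 3 genes the highest DuxKO library was below 7 CPM and the lowest WT library above 24. Zfp978 and Zfp981 fell by 3.19 and 3.37 on the log2 scale in the joint fit. The smallest falls of the span's zinc finger genes were those of Zfp992, Zfp991 and Zfp993 (log2 -1.06, -1.07 and -1.23), and Zfp992 and Zfp993 were the 2 of the 15 not called in the genotype table (adjusted p = 0.19 and 0.17). These genes resemble each other closely, how the authors' counting treated reads that match several of them is not given in the sources used here, and the size of a fall cannot be assigned with certainty to 1 of them.

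**Figure D3:**
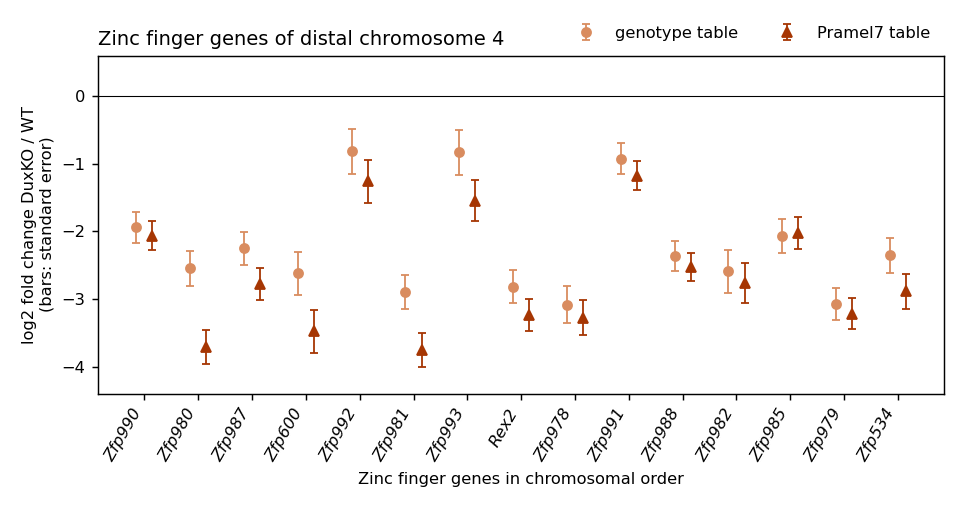
Log2 fold change of DuxKO against WT with its standard error for the 15 zinc finger genes of the chromosome 4 span, in chromosomal order, in the genotype table (circles) and the Pramel7 table (triangles). All values lie below 0, and Zfp992, Zfp993 and Zfp991 lie nearest to it.

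Promoters of the span are shown because 10 of the genes that fell share stretches of them. Each sequence holds the 250 bases before the annotated start, 5′ to 3′ along the gene, from RefSeq on mm10; the capitals mark TGGGAAGCTAATTAA, the longest run of letters shared by all 10 repeating genes of the span with a promoter in the table, and TATTGGGCG, the longest shared run nearer to the start.
Rex2: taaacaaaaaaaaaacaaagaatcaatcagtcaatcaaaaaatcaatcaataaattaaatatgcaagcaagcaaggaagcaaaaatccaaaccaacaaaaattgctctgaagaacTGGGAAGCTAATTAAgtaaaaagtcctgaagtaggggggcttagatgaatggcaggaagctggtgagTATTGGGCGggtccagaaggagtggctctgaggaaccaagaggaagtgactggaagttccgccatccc
Zfp979: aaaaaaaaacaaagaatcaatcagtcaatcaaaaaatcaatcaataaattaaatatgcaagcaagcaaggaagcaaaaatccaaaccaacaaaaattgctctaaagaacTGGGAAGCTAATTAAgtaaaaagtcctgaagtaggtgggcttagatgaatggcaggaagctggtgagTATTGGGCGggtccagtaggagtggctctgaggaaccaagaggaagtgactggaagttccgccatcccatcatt
Zfp980: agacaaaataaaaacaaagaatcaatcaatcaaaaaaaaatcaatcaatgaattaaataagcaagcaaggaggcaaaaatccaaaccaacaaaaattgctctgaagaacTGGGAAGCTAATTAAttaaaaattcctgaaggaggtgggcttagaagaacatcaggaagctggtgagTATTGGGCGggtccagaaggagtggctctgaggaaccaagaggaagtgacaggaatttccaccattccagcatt
Zfp987: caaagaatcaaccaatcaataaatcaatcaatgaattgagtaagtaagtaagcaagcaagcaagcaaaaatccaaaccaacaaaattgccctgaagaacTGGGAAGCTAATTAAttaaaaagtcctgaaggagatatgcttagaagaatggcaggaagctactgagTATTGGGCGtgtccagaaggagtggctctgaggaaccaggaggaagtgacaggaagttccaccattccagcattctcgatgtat
Zfp993: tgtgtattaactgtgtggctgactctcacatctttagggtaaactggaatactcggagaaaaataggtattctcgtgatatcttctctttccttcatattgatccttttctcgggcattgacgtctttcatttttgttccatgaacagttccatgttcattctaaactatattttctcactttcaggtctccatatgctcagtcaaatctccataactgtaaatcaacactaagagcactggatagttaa
They lie at chr4:147021600-147021849 (plus strand, Rex2), chr4:147642509-147642758 (minus strand, Zfp979), chr4:145670447-145670696 (plus strand, Zfp980), chr4:146097062-146097311 (plus strand, Zfp987) and chr4:146512599-146512848 (plus strand, Zfp993). Over windows of 250 bases before to 50 after the start, Rex2 and Zfp979 were 94.7% identical and Rex2 and Zfp987 79.0%, whereas Rex2 and Zfp993 were 40.7% identical. Of the 15 genes, 11 had a promoter in the RefSeq table. The 10 of these called in both tables hold both blocks by the way the blocks were chosen. Zfp993, the remaining gene, held neither block and is 1 of the 3 genes with the smallest falls. Zfp991 and Zfp992, the others of these 3, had no promoter there, and a link between blocks and falls was not tested. Searched on both strands of the 250 bases, TGGGAAGCTAATTAA was found for 12 of 27025 genes (0.0444%), all on chromosome 4. All 12 were tested and lower in DuxKO in the joint fit. The 10 of them called in both tables are the genes from which the block was taken, so their falls are no test of it. The other two were Gm13212 (log2 fold change -1.03, adjusted p = 0.013) and Zfp984 (-0.70, adjusted p = 0.0070). The shorter block TATTGGGCG was found for 32 genes (0.118%), of which 26 were tested, 13 lower and 2 higher. The 13 include the same 10 genes, from which this block was taken as well. The blocks do not overlap each other. Shared sequence of this kind also makes the genes hard to tell apart by reads.

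On chromosome 7, 3 adjacent tested genes of an imprinted domain fell in both tables. Imprinted genes are transcribed from 1 parental copy, and this domain is silenced on the paternal copy. Cdkn1c, an inhibitor of the cell cycle that lies at positions 143458339 to 143461059, stood at 30.4 and 30.4 CPM in WT against 4.03 and 3.897 in DuxKO of the genotype table, and 91.1, 89.1, 70.8 and 100.1 in WT against 3.44 and 3.58 in DuxKO of the Pramel7 table. Cdkn1c fell by 3.86 ± 0.30 on the log2 scale in the joint fit (adjusted p = 9.9e-06). Phlda2, a growth regulator of the placenta at positions 143501545 to 143503145, stood at 5.35 and 4.65 CPM in WT against 0.712 and 0.696 in DuxKO of the genotype table, and 11.6, 14.97, 13.6 and 16.2 in WT against 0.444 and 0.567 in DuxKO of the Pramel7 table. Phlda2 fell by 3.82 ± 0.33 on the log2 scale in the joint fit (adjusted p = 2.1e-05). In both genes the DuxKO libraries stood lower and the WT libraries higher in the Pramel7 table than in the genotype table, and the fall was larger there (Pramel7 minus genotype table, log2 -1.70 ± 0.23, adjusted p = 0.0040, and -1.94 ± 0.35, adjusted p = 0.017). Slc22a18, a transporter gene between them, gave at most 3 counts in each DuxKO library and was at least 7.38-fold lower in the genotype table and at least 9.18-fold lower in the Pramel7 table. Ascl2, a trophoblast regulator further along the domain, fell in the joint fit (log2 -4.00 ± 0.58, adjusted p = 0.00082) but missed the threshold in the genotype table (adjusted p = 0.05005). Slc22a18 and Ascl2 were looked up because they are neighbours.

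Imprinted genes elsewhere changed in both directions. Of 25 tested imprinted genes outside the Dlk1-Dio3 cluster, 4 rose and 3 fell in both tables, where 0.908% and 1.92% of all genes did. Plagl1, a growth-restraining zinc finger factor, rose most: it stood at 3.55 and 5.12 CPM in WT against 13.9 and 11.9 in DuxKO of the genotype table, and 0.914, 0.964, 0.992 and 1.94 in WT against 10.2 and 16.3 in DuxKO of the Pramel7 table. Plagl1 rose by 2.63 ± 0.34 on the log2 scale in the joint fit (adjusted p = 0.00040). Sgce, the gene of a sarcoglycan, stood at 1.41 and 1.18 CPM in WT against 5.16 and 3.93 in DuxKO of the genotype table, and 2.21, 2.53, 1.68 and 0.813 in WT against 3.77 and 7.19 in DuxKO of the Pramel7 table. Sgce rose by 1.69 ± 0.29 on the log2 scale in the joint fit (adjusted p = 0.0024). Every DuxKO library was above every WT library of its table for both genes. Over the 25 genes the joint fit called 9 higher and 5 lower (6.19% and 7.58% of all genes), at a median of 0.13. Meg3, the maternally expressed RNA of the Dlk1-Dio3 cluster, was not called (log2 -0.58 ± 0.18, adjusted p = 0.051). Of the 6 genes of that cluster 1 was called in the joint fit, lower, as 7.58% of all genes were.

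Among the genes that establish DNA methylation, Dnmt3l fell in DuxKO in both tables, and Dnmt3b and Dnmt3a fell in the Pramel7 table. Dnmt3l, the cofactor of the de novo methyltransferases, stood at 69.7 and 63.8 CPM in WT against 23.04 and 22.7 in DuxKO of the genotype table, and 172, 178, 228 and 228 in WT against 27.8 and 28.1 in DuxKO of the Pramel7 table. Dnmt3l fell by 2.27 ± 0.24 on the log2 scale in the joint fit (adjusted p = 7.8e-05). It fell in both tables and fell further in the Pramel7 table, where its WT level was higher (difference of log2 fold changes -1.30 ± 0.22, adjusted p = 0.011). Dnmt3b, a de novo methyltransferase, stood at 85.5 and 93.3 CPM in WT against 55.5 and 56.3 in DuxKO of the genotype table, and 363, 377, 262 and 267 in WT against 51.1 and 40.5 in DuxKO of the Pramel7 table. Its fall was called in the Pramel7 table (log2 -2.79 ± 0.20, adjusted p = 1.3e-05) and not in the genotype table (log2 -0.68 ± 0.20, adjusted p = 0.073), and the difference passed the test (adjusted p = 0.0034). Dnmt3a (joint log2 -0.17 ± 0.12, adjusted p = 0.42), the maintenance enzyme Dnmt1 (0.15 ± 0.14, adjusted p = 0.54) and its partner Uhrf1 (0.08 ± 0.10, adjusted p = 0.67) were not called in the joint fit. In the Pramel7 table alone Dnmt3a fell by 0.41 ± 0.11 on the log2 scale (adjusted p = 0.028), and the difference between the tables did not pass the test (adjusted p = 0.10). Of the 11 genes of the list, 1 rose and 2 fell in the joint fit, against 6.19% and 7.58% of all genes, and 1 rise in 11 is near that share.

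Among pluripotency genes, no core factor was called in both tables, and some signalling and formative genes fell. Pou5f1 was lower in the joint fit (log2 -0.38 ± 0.11, adjusted p = 0.040), a call absent in the genotype table alone. The call was lost without any 1 of the 4 DuxKO libraries (adjusted p between 0.051 and 0.156), and also without WT replicate 1, 2, 4 or 5. Sox2 (0.05 ± 0.12, adjusted p = 0.83) and Nanog (-0.24 ± 0.10, adjusted p = 0.16) were not called. Fgf4, a growth factor by which these cells prime themselves to differentiate, stood at 111 and 109 CPM in WT against 68.1 and 62.2 in DuxKO of the genotype table, and 114, 101, 126 and 156 in WT against 65.2 and 70.0 in DuxKO of the Pramel7 table. Fgf4 fell by 0.82 ± 0.12 on the log2 scale in the joint fit (adjusted p = 0.0012). Zic2, a zinc finger factor of the formative state, stood at 32.1 and 36.3 CPM in WT against 15.03 and 13.3 in DuxKO of the genotype table, and 55.5, 53.2, 50.5 and 49.5 in WT against 21.6 and 19.07 in DuxKO of the Pramel7 table. Zic2 fell by 1.32 ± 0.10 on the log2 scale in the joint fit (adjusted p = 8.9e-06). Its neighbour Zic5 and the RNA 2610035F20Rik between them on chromosome 14 also fell in both tables. The HMG-box gene Sox3 fell (joint log2 -1.13 ± 0.19, adjusted p = 0.0020), and Etv4, an ETS factor downstream of FGF signalling, rose (0.91 ± 0.12, adjusted p = 0.00056). Of 15 core and formative genes 1 rose and 7 fell in the joint fit (6.19% and 7.58% of all genes), with a median of -0.48. The 18 naive pluripotency genes gave other counts in each table: 0 rose and 3 fell in the genotype table (2.17% and 3.82% of all genes; median -0.36), and 6 rose and 2 fell in the Pramel7 table (7.67% and 8.59%; median 0.27), with 2 differences past the test.

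Genes of the Nodal and BMP pathways, TGF-β family signals that pattern the early embryo, changed in both directions. The ligand gene Bmp4 stood at 13.8 and 16.4 CPM in WT against 4.31 and 4.56 in DuxKO of the genotype table, and 11.7, 10.2, 19.07 and 14.8 in WT against 4.77 and 5.46 in DuxKO of the Pramel7 table. Bmp4 fell by 1.58 ± 0.18 on the log2 scale in the joint fit (adjusted p = 0.00020). Tdgf1, the Nodal co-receptor, stood at 298 and 278 CPM in WT against 125 and 132 in DuxKO of the genotype table, and 216, 243, 259 and 226 in WT against 134 and 165 in DuxKO of the Pramel7 table. Tdgf1 fell by 0.87 ± 0.12 on the log2 scale in the joint fit (adjusted p = 0.00072). The Nodal target and inhibitor Lefty2 fell as well (log2 -0.78 ± 0.10, adjusted p = 0.00047), while Id2, an inhibitor of helix-loop-helix factors and a BMP target in many cells, rose from 10.8 and 12.5 to 27.6 and 28.0 CPM and from 19.08, 18.4, 14.4 and 15.7 to 33.9 and 39.0 CPM (log2 1.17 ± 0.11, adjusted p = 4.7e-05). Of the 15 genes of the list, 5 rose and 6 fell in the joint fit (6.19% and 7.58% of all genes). Evx1, a homeobox gene of the primitive streak, fell in both tables (log2 -2.99 ± 0.37, adjusted p = 0.00031), and 3 of 9 tested streak and mesoderm genes fell in the joint fit (7.58% of all genes). The summed CPM of that list stood at 8.93 and 10.4 in WT against 4.04 and 5.06 in DuxKO of the genotype table and at 29.2 to 39.3 against 7.72 and 9.48 in the Pramel7 table, with no overlap; whether fewer differentiating cells take part in these falls was not tested.

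The largest repeating rises were in genes of several kinds. Hoxa3, a homeobox gene on chromosome 6, stood at 0.458 and 0.0674 CPM in WT against 2.14 and 1.64 in DuxKO of the genotype table, and 0.152, 0.482, 0.267 and 0.316 in WT against 2.11 and 2.66 in DuxKO of the Pramel7 table. Hoxa3 rose by 2.91 ± 0.40 on the log2 scale in the joint fit (adjusted p = 0.00061). It was below 0.5 CPM in every WT library. Skap2, an adaptor protein of Src kinase signalling, rose as well (log2 0.87 ± 0.12, adjusted p = 0.00050). Csf1, the gene of a macrophage growth factor, stood at 0.211 and 0.371 CPM in WT against 4.17 and 1.57 in DuxKO of the genotype table, and 1.56, 1.57, 1.11 and 1.08 in WT against 5.05 and 5.42 in DuxKO of the Pramel7 table. Csf1 rose by 2.43 ± 0.34 on the log2 scale in the joint fit (adjusted p = 0.00062). Tgfb2, a TGF-β ligand, stood at 0.281 and 0.775 CPM in WT against 4.06 and 2.78 in DuxKO of the genotype table, and 0.838, 1.28, 1.56 and 1.81 in WT against 4.44 and 5.03 in DuxKO of the Pramel7 table. Tgfb2 rose by 2.13 ± 0.31 on the log2 scale in the joint fit (adjusted p = 0.00080). Csf1 was low in WT, and its 2 DuxKO libraries of the genotype table differed widely. The remaining large rises were those of Grin2a, a subunit of NMDA receptors (log2 2.35 ± 0.20), Hs3st3b1, a heparan sulfate sulfotransferase (2.19 ± 0.29), Dgki, a diacylglycerol kinase (2.08 ± 0.19), Mmp16, a membrane metalloproteinase (2.02 ± 0.23), Plce1, a phospholipase C (1.87 ± 0.13), Pmp22, a myelin protein (1.81 ± 0.24), and Insyn1, a protein of inhibitory synapses (1.80 ± 0.18), with adjusted p between 6.6e-06 and 0.00047. Levels of Plce1 went from 4.64 and 4.15 CPM in WT to 17.3 and 18.8 in DuxKO and from 7.27, 7.71, 5.53 and 5.56 to 20.9 and 23.1 in the Pramel7 table (log2 2.04 and 1.76).

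Some genes that mark epithelial cells fell and some that mark mesenchymal cells rose. The tight junction genes Cldn6 and Cldn4 fell in both tables: Cldn4 stood at 23.7 and 24.5 CPM in WT against 11.2 and 10.2 in DuxKO of the genotype table, and 53.4, 46.9, 45.4 and 42.6 in WT against 11.04 and 10.7 in DuxKO of the Pramel7 table (joint log2 fold change -1.70 ± 0.18, adjusted p = 8.1e-05), and Cldn6 fell by 2.11 on the log2 scale (adjusted p = 0.0013). Vim, the intermediate filament of mesenchymal cells, stood at 78.8 and 87.1 CPM in WT against 199.7 and 190.3 in DuxKO of the genotype table, and 59.7, 66.1, 82.6 and 67.6 in WT against 197 and 236 in DuxKO of the Pramel7 table. Vim rose by 1.47 ± 0.12 on the log2 scale in the joint fit (adjusted p = 1.5e-05). Cdh2, which encodes N-cadherin, stood at 19.4 and 18.6 CPM in WT against 43.4 and 44.3 in DuxKO of the genotype table, and 17.8, 16.8, 19.14 and 19.3 in WT against 45.3 and 45.3 in DuxKO of the Pramel7 table. Cdh2 rose by 1.27 ± 0.09 on the log2 scale in the joint fit (adjusted p = 6.6e-06). For Cdh2 the DuxKO libraries ranged only from 43.4 to 45.3 CPM. Of the 16 genes of the list 2 rose and 3 fell in both tables (0.908% and 1.92% of all genes). In the joint fit 5 rose and 4 fell (6.19% and 7.58% of all genes), with a median of -0.15. Not all members followed this pattern. In the genotype table the epithelial gene Tjp1 gave 1970 and 2046 counts in DuxKO against 1503 and 1685 in WT. The mesenchymal gene Fn1 gave 20922 and 20953 against 24373 and 26294. Of the smooth muscle and cytoskeleton list, the non-muscle myosin gene Myh9 fell (joint log2 fold change -1.90 ± 0.16, adjusted p = 1.5e-05), from 112 and 115 to 38.1 and 43.5 CPM and from 157, 170.2, 171 and 208 to 38.4 and 36.7 CPM. Thbs1, a matrix glycoprotein, and Zyx, a focal adhesion protein, rose (log2 1.47 ± 0.33 and 0.84 ± 0.16, adjusted p = 0.011 and 0.0051); the rise of Thbs1 was larger in the genotype table (log2 2.74 against 0.62, adjusted p of the difference = 0.0026). Of the 20 tested genes of that list 5 rose and 1 fell in the joint fit (6.19% and 7.58% of all genes), and 1 fall in 20 is near that share.

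Of 12 genes of the response to amino acid shortage and unfolded proteins, 6 rose and 1 fell in the joint fit, where 6.19% and 7.58% of all genes did. Atf4, the transcription factor at the centre of that response, stood at 177 and 182 CPM in WT against 398 and 369 in DuxKO of the genotype table, and 177, 168, 164 and 156 in WT against 249 and 243 in DuxKO of the Pramel7 table. Atf4 rose by 0.79 ± 0.11 on the log2 scale in the joint fit (adjusted p = 0.00080). Chac1, a glutathione-degrading target of it, stood at 6.19 and 9.74 CPM in WT against 39.9 and 40.2 in DuxKO of the genotype table, and 16.1, 12.8, 4.996 and 8.04 in WT against 27.9 and 22.8 in DuxKO of the Pramel7 table. Chac1 rose by 1.73 ± 0.31 on the log2 scale in the joint fit (adjusted p = 0.0030). Herpud1, of the degradation pathway of the endoplasmic reticulum, rose too (log2 1.17 ± 0.16, adjusted p = 0.00060), and it lies on chromosome 8. The 22 genes of glycolysis and hypoxia gave other counts in each table. In the genotype table, 3 rose and 1 fell (2.17% and 3.82% of all genes), and the summed CPM went from 11190 and 11350 in WT to 12490 and 12730 in DuxKO. In the Pramel7 table, 3 rose and 9 fell (7.67% and 8.59%), and the sum was 12070 to 13900 in WT against 10250 and 10340 in DuxKO. The difference between the tables passed the test for 5 of the 22 genes (3.15% of all genes). The neuronal-type glucose transporter gene Slc2a3 rose from 368 and 358 to 676 and 685 CPM and from 288, 307, 258 and 354 to 654 and 524 CPM, and Vegfa, an angiogenic factor, rose by 1.25 ± 0.17 on the log2 scale, while the stress-induced Ndrg1 fell (log2 -1.70 ± 0.22).

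Single members of other lists changed in both tables. The counts of these lists in the joint fit stand against 6.19% of all genes higher and 7.58% lower. Of 19 tested germline genes 0 rose and 6 fell. It was 2 and 6 of 21 sterol and fatty acid synthesis genes, 1 and 2 of 16 p53 targets, and 1 and 1 of 7 neural genes. For interferon and antigen presentation it was 0 and 4 of 28 genes, and for trophoblast 1 and 1 of 11. Tex19.1, a germline gene silenced by DNA methylation in most tissues, fell (log2 -1.07 ± 0.13, adjusted p = 0.00029), as did Lss, lanosterol synthase of sterol synthesis (-0.63 ± 0.11, adjusted p = 0.0028), Trp53inp1, a p53 target (-0.68 ± 0.09, adjusted p = 0.00050), Map2, a microtubule protein of neurons (-1.08 ± 0.14, adjusted p = 0.00049), and Oas1a, an interferon-induced sensor of double-stranded RNA (-2.70 ± 0.37, adjusted p = 0.00058). Gata3, a trophoblast transcription factor, rose (1.06 ± 0.16, adjusted p = 0.0013), although the summed trophoblast markers, given above, were higher in DuxKO only in the genotype table. Of the genes set above Dux in the pathway, Dppa2 and Dppa4 fell slightly (log2 -0.45 ± 0.10 and -0.41 ± 0.12, adjusted p = 0.012 and 0.037), Ctbp1 rose slightly (0.36 ± 0.10, adjusted p = 0.025) and Ctbp2 was not called (-0.14 ± 0.09, adjusted p = 0.33). These 3 calls were absent in the genotype table on its own, and without DuxKO replicate 4 their adjusted p was 0.051, 0.151 and 0.113. Without DuxKO replicate 3 it was 0.061, 0.138 and 0.086. The call of Dppa4 was also lost without DuxKO replicate 2 or WT replicate 2, 4 or 5. That of Ctbp1 was also lost without DuxKO replicate 1 or WT replicate 1. Pramel7, a 2-cell-like gene whose product was overexpressed in other samples, gave 0 to 4 counts in WT and 0 in DuxKO.

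Besides chromosome 4 and the imprinted domain, short runs of neighbouring genes fell together; these were looked for after the data were seen. Each run is bounded by genes that fell in both tables, as 1.92% of all genes did, so high shares within a run are built in. On chromosome 2 from 177264488 to 177773399, 6 of 7 tested genes fell in both tables, and on chromosome 13 from 66110374 to 66862122 it was 6 of 9; both stretches hold predicted genes and Zfp genes, Zfp970 and Zfp640 among them, and the caution on near-identical copies applies. On chromosome 3 from 95228424 to 95296166 all 5 tested genes fell in both tables: Cdc42se1, Gm128, Bnipl, Prune1 and Mindy1. On chromosome 9 the co-receptor gene Tdgf1 fell together with Prss50 and Lrrc2, and on chromosome 7 from 30434980 to 30465591 the run held Aplp1, Kirrel2 and Nphs1os.

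Genes of chromosome 8 were slightly higher in DuxKO as a group. Over chromosome 8 the median log2 fold change was 0.385 in the genotype table and 0.328 in the Pramel7 table, and 256 of 918 tested genes (27.9%) were higher in the joint fit, against 5.59% of the genes placed on other chromosomes. They made up 59 of the 183 repeating rises (32.2%). Relative to the mean WT level of the table, the median of the chromosome's genes was 0.389 and 0.363 in DuxKO of the genotype table, 0.321 and 0.349 in DuxKO of the Pramel7 table, and between -0.02 and 0.04 in the 6 WT libraries. No library of WT came near a DuxKO library. The same median was 0.340 and 0.330 in CtbpDKO, 0.303 and 0.322 in CtbpDKO_Dppa2KO (CtbpDKO with Dppa2 lost) and 0.207 and 0.217 in Ctbp_DuxTKO. It was 0.186 and 0.166 in P7OE, 0.014 and 0.013 in DuxKO_P7OE, 0.195 and 0.228 in P7KO (Pramel7 knockout) and -0.067 and -0.121 in Dppa2KO (Dppa2 knockout). Set against the median of the library's other chromosomes, chromosome 8 stood 0.315 to 0.336 higher in DuxKO. By that measure it stood 0.412 and 0.372 higher in CtbpDKO, 0.377 and 0.382 in CtbpDKO_Dppa2KO and 0.332 and 0.326 in Ctbp_DuxTKO. The values were 0.224 and 0.218 in P7OE, 0.149 and 0.152 in P7KO, 0.105 and 0.117 in DuxKO_P7OE, and -0.171 and -0.196 in Dppa2KO. The offset was thus not particular to DuxKO. DNA copy number was not measured here, and its part in these rises was not tested. Without the genes of chromosome 8, 475 genes repeated, 473 of them among the 570; none of the 12 largest rises lies on chromosome 8.

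**Figure D4:**
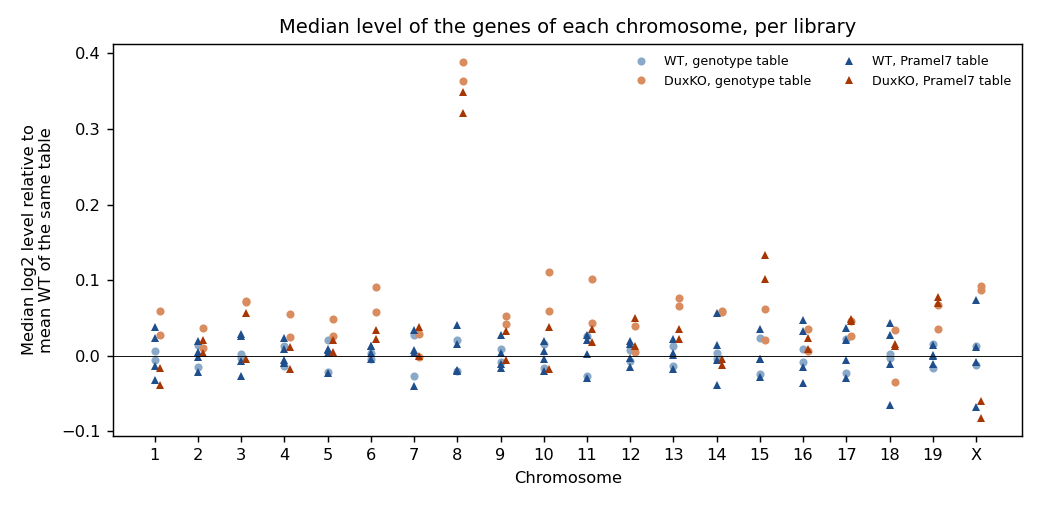
Median log2 level of the genes of each chromosome in each of the 10 libraries, relative to the mean WT level of the same table; circles are the genotype table, triangles the Pramel7 table, blue WT and orange DuxKO. On chromosome 8 the 4 DuxKO libraries lie between 0.321 and 0.389, apart from every other point.

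The 2 tables disagreed on a smaller set of genes. The difference of the 2 fold changes passed the test for 635 genes (3.15%), 326 (1.62%) with a higher value in the Pramel7 table and 309 (1.53%) with a lower one. Among the repeating genes, 25 of those lower and 5 of those higher had such a difference. The 635 fell to between 121 and 161 when any 1 of DuxKO replicates 1 to 4 or WT replicates 1 and 2 was left out, and rose to 1245 without WT replicate 6. Opposite directions were called for 58 genes, 25 lower in the genotype table and higher in the Pramel7 table and 33 the reverse. Trps1, a GATA-type repressor, stood at 51.8 and 55.9 CPM in WT against 27.8 and 29.3 in DuxKO of the genotype table, and 21.9, 19.3, 22.3 and 20.8 in WT against 42.8 and 45.7 in DuxKO of the Pramel7 table (difference of log2 fold changes 1.99 ± 0.17, adjusted p = 0.00054). Halr1, a non-coding RNA beside the Hoxa cluster, stood at 14.3 and 15.1 CPM in WT against 6.45 and 7.83 in DuxKO of the genotype table, and 4.15, 4.86, 4.62 and 4.20 in WT against 16.6 and 15.2 in DuxKO of the Pramel7 table (difference 2.87 ± 0.22, adjusted p = 0.00025). Calcoco2, an autophagy receptor, went the other way, with 1.06 and 1.82 CPM in WT against 8.94 and 6.51 in DuxKO of the genotype table, and 10.9, 10.5, 10.9 and 11.3 in WT against 4.55 and 3.51 in DuxKO of the Pramel7 table (difference -3.86 ± 0.35, adjusted p = 0.00063). In each of these the WT libraries differed between the tables by more than they did within one. Gbp2, an interferon-induced GTPase, had the largest difference of the 10 genes named by this rule (log2 -6.05), from 0.0704 and 0.371 CPM in WT of the genotype table and 8.54 to 30.5 CPM in WT of the Pramel7 table to 2.50 to 3.01 CPM in all DuxKO libraries.

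Marker lists of 2 further kinds differed in how they changed in the tables. Of 28 tested interferon and antigen presentation genes, 12 fell and 0 rose in the Pramel7 table (8.59% and 7.67% of all genes). In the genotype table, 1 fell and 1 rose, near the 3.82% and 2.17% of all genes, and 4 differences passed the test (3.15% of all genes). The summed CPM of the list was 326 to 365 in WT against 288 and 301 in DuxKO of the Pramel7 table, and 257 and 266 against 256 and 282 in the genotype table. Of 15 tested endoderm genes, 8 fell and 0 rose in the genotype table (3.82% and 2.17% of all genes), 2 fell and 2 rose in the Pramel7 table (8.59% and 7.67%), and 7 differences passed the test (3.15%). Sox17, an endoderm transcription factor, stood at 2.92 and 2.83 CPM in WT against 0.427 and 0.139 in DuxKO of the genotype table, and 0.533, 0.562, 0.686 and 1.17 in WT against 0.776 and 0.177 in DuxKO of the Pramel7 table; the 2 WT libraries of the genotype table were the high ones. The part of differentiated cells in these differences was not tested.

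The 387 and the 183 genes that repeated in DuxKO did not keep the sign of their median change when Dux was absent in 2 other backgrounds, measured in the same tables with other libraries. In CtbpDKO cells, where Duxf3 was detected, Dux loss changed 1817 of 20689 genes (8.78%), 832 higher (4.02%) and 985 lower (4.76%). Of the 387 genes lower in DuxKO in both tables, 8 were lower and 110 higher on Dux loss in CtbpDKO cells, and their median change was 0.37 on the log2 scale. Of the 182 tested genes of the higher set, 12 were higher and 33 lower, with a median of -0.17. The difference between the 2 effects passed the test for 363 of the 387 and 143 of the 182, where 20.6% of all genes did; DuxKO against WT chose the genes and is 1 side of that difference, so these counts are a description. The zinc finger genes of chromosome 4 followed: of the 15, 8 were higher and 0 lower on Dux loss in CtbpDKO cells (median 0.84). The number of genes changed in CtbpDKO cells was 769 without Ctbp_DuxTKO replicate 1, 485 without CtbpDKO replicate 1 and 834 without CtbpDKO replicate 2.

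Under overexpression of Pramel7, Dux loss changed 4 of 19669 genes (0.0203%), all lower, with 0 higher (0%) at edgeR's adjusted p under 0.05. At an unadjusted p under 0.05 it was 1978 genes. None of the 387 or the 183 was called, and their median log2 fold changes were 0.07 and -0.16. An unadjusted p under 0.05 was reached by 72 of the 387 and 32 of the 183, larger shares than the 1978 of 19669 over all genes. Of the 15 zinc finger genes of chromosome 4, 14 kept the sign they had in DuxKO, with a median of -0.46 (-0.77 to 0.13), and none was called. Their change differed from that of DuxKO against WT past the test for 12 of the 15. The difference from DuxKO against WT passed the test for 231 of the 387 and 88 of the 183 (6.15% of all genes); as above, DuxKO against WT chose the genes, and these counts are a description. The 4 genes called were Gm20765, Gm21304, Gm21312 and Gm4340, predicted genes named after their values were seen; all 4 were also lower in DuxKO than in WT in the joint fit. The count was 0 and 7 without DuxKO_P7OE replicates 1 and 2, 1 and 2 without P7OE replicates 1 and 2, and 317 with no filter on low counts. Gm21304, for example, stood at 1.55 and 1.01 CPM in WT against 0.534 and 0.348 in DuxKO of the genotype table, and 4.15, 2.89, 4.16 and 1.72 in WT against 0.277 and 0.142 in DuxKO of the Pramel7 table. Zscan4a to Zscan4f together gave 553 and 284 counts in the 2 P7OE libraries against 0 in both DuxKO_P7OE libraries, and 1127 and 1731 counts in CtbpDKO against 4 and 0 in Ctbp_DuxTKO. The summed Zscan4 counts were thus lower without Dux in all 4 comparisons.

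The mean log2 CPM of the 387 genes, computed with a prior count of 2, was 1.75 to 1.93 in the 4 DuxKO libraries and 2.99 to 3.81 in the libraries of all other groups, including Ctbp_DuxTKO at 3.80 and 3.81 and DuxKO_P7OE at 3.50 and 3.53. The mean of the 183 genes was 4.52 to 4.65 in DuxKO and 3.41 to 3.81 elsewhere; without chromosome 8, for 124 genes, it was 4.04 to 4.27 and 2.78 to 3.21. DuxKO stands apart because DuxKO against WT chose the genes. Ctbp_DuxTKO and DuxKO_P7OE, which are also labelled as lacking Dux, did not stand with DuxKO. The labels give no clone for any of these lines, and properties of a line other than its Dux genotype cannot be told apart from Dux loss in DuxKO.

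**Figure D5:**
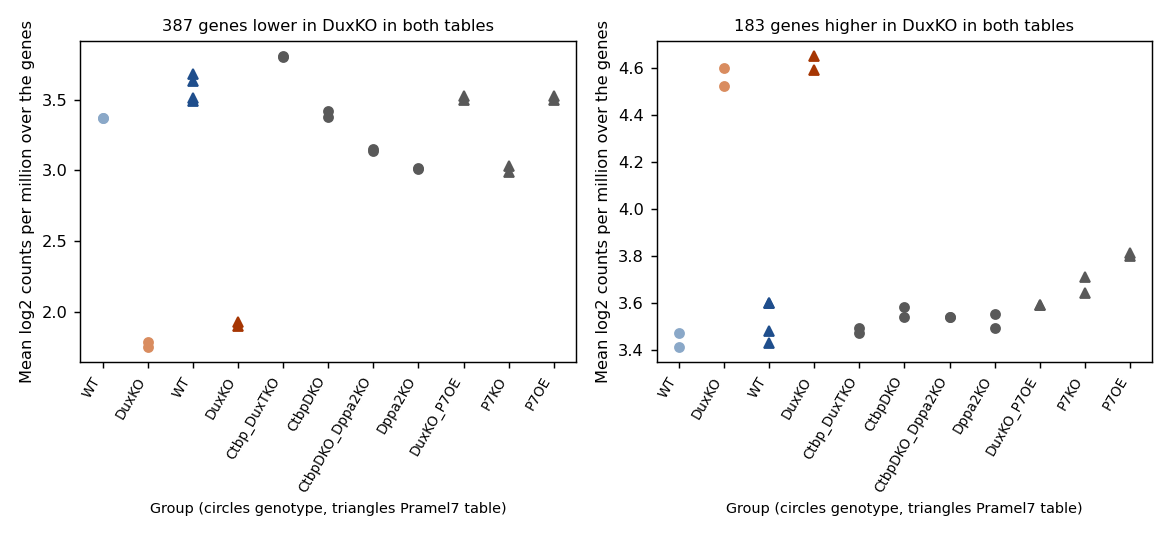
Mean log2 CPM over the 387 genes lower (left) and the 183 genes higher (right) in DuxKO in both tables, 1 point per library, by group; circles are the genotype table and triangles the Pramel7 table, and the vertical axes do not start at 0. The group drawn as CtbpDKO_Dppa2KO is named from its sample description, while its title reads Dppa2_DuxTKO. DuxKO stands apart because it chose the genes; Ctbp_DuxTKO (3.80 and 3.81 on the left) and DuxKO_P7OE (3.50 and 3.53) do not.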

How the data were processed

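RNA of E14tg2a mouse embryonic stem cells was sequenced from stranded libraries of total RNA. The authors deposited raw counts per gene symbol; the submitters' processing notes name Trim Galore, HISAT2, featureCounts and mm10, and settings are not given in the sources used here. The 2 tables hold 55276 and 55291 rows. In the genotype table, 26 symbols had turned into dates (0.069 to 0.081% of counts) and were left out. The 55174 shared symbols were fitted, and those passing edgeR's expression filter by table and genotype (20160) were tested with its quasi-likelihood test (edgeR 4.0.16, R 4.3.3, TMM factors of 0.896 to 1.15), adjusted by Benjamini-Hochberg and called under 0.05. The joint fit had table as covariate; each table's contrast and their difference came from 1 fit with 4 groups. A gene repeats when called in the same direction in both. SE is the absolute log2 fold change over the square root of F, with a prior count of 0.125. CPM use TMM-scaled totals. Symbols were matched to RefSeq for 17493 tested genes.

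Named genes were the 12 largest repeating changes per direction with a mean count of at least 50 in the higher group of each table and no overlap, up to 5 per pattern called in opposite directions, up to 4 repeating members per gene list, and fixed genes of the Dux and DNA methylation pathways; predicted genes were passed over. One of the named genes is not reported here. The members and the 24 lists were chosen with earlier results of these data known. Genes of neighbouring runs were named after their values were seen. Replicate numbers did not pair libraries across groups (correlations of deviations between -0.0207 and 0.0274). A second deposited file repeated 442208 of 442208 values of the genotype table and was not used. The fits were tested on simulated data, where small changes were recovered less often than large ones, least often for the difference between tables. Alternatives were other size factors, DESeq2 1.42.0, no filter, other library choices, a replicate block, a minimum change and leaving out each library.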

Additional observations from a re-analysis of the deposited data

Results flagged for a closer look

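The change in DuxKO differed between the tables for 19 of 77 named genes tested (difference past an adjusted p of 0.05 in edgeR's quasi-likelihood test), 10 of which were named for being called in opposite directions. Given as the log2 fold change in the Pramel7 table minus that in the genotype table, it was higher for Fry (2.69), Halr1 (2.87), Cpt1b (2.12), Ampd3 (2.09) and Trps1 (1.99), which fell in the genotype table and rose in the Pramel7 table. It was lower for Gbp2 (-6.05), Calcoco2 (-3.86), Mageb16 (-3.60), Apln (-2.76) and Vwa5a (-2.69), which did the reverse. The differences of Ampd3, Apln and Fry missed the threshold when some single libraries were left out (adjusted p up to 0.0659, 0.0765 and 0.0777).

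Among genes changed the same way in both tables, the fall was larger in the Pramel7 table for Phlda2 (-1.94), Cldn6 (-1.77), Cdkn1c (-1.70), Dnmt3l (-1.30) and Cldn4 (-0.95), and the rise was larger there for Plagl1 (1.90) and Hs3st3b1 (1.72). The rise of Thbs1 was smaller there (-2.12). Dnmt3b, called only in the Pramel7 table, also differed (-2.12).

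A single WT library of the Pramel7 table stood far from the other 3 for Oas1a (gap over range 0.893), Tex19.1 (0.836) and Zyx (0.831), against a critical value of 0.83 for 4 samples. These were 3 of 64 genes tested, and chance flags about 1 in 20.

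The change on Dux loss in other backgrounds was also set against that in DuxKO. DuxKO against WT chose these genes and is 1 side of the difference, so the counts are a description and not a finding. In CtbpDKO cells the difference passed the test for 363 of the 387 lower and 143 of the 182 tested higher genes, and in P7OE cells for 231 of the 387 and 88 of the 183.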

How the results depend on the processing

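Other size factors, leaving out structural RNA genes or a prior count of 2 left each count of calls within 1.5 times. The main counts were 2775 joint, 1209 genotype table, 3278 Pramel7 table, 635 for the difference, 570 repeating, 1817 for Dux loss in CtbpDKO and 4 in P7OE cells. DESeq2 gave 1857 (genotype table) and 1282 (difference). With no filter on low counts these became 1931 and 1291, with 862 repeating, 2832 in CtbpDKO and 317 in P7OE cells. With all 24 libraries in the fit they were 4704 joint, 2196 genotype table, 1554 difference and 994 repeating. Fitting each table alone gave 4202 and 2098 (and no test of the difference), with 463 of its 772 repeating genes shared. With only WT replicates 3 and 4 of the Pramel7 table the counts were 4306 genotype, 5471 Pramel7, 3754 difference and 1479 repeating, where the balance turned to 766 higher and 713 lower; with only WT replicates 5 and 6 they were 2394, 5243, 1663 and 1196. A log2 change of at least 1 left 1126 joint, 686 genotype, 1545 Pramel7 and 312 repeating. Leaving out single libraries gave 1465 to 2791 joint, 259 to 2015 genotype, 1154 to 3759 Pramel7, 121 to 1245 difference, 174 to 809 repeating, 485 to 1664 in CtbpDKO and 0 to 7 in P7OE cells; fewer libraries leave fewer degrees of freedom. The replicate block, although the numbers do not pair the libraries, gave 1209 joint, 3016 in CtbpDKO and 867 in P7OE cells, and with it Ctbp1, Dnmt3b, Dppa4, Pou5f1, Thbs1, Zscan4c and Zyx missed the threshold (adjusted p 0.0563 to 0.111). Without chromosome 8, an alternative added after seeing the data, 475 repeated. Of 67 named genes with a joint value 60 were called; all 60 kept their direction under every alternative run, and 44 also their call. Meg3 passed under DESeq2 and some other settings. The uncalled Sox2 reversed to -0.077 with WT replicates 5 and 6 only, and ranged from -0.032 (without DuxKO replicate 3) to 0.12 (without WT replicate 2). Apart from fewer genes tested or fewer samples, the cause of these shifts was not tested. Dux itself, at 0 to 2 counts in WT, is below what this depth can test.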
